A study of Mus musculus with 30 samples.

Results

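Gluconeogenesis is the synthesis of glucose from lactate, amino acids and glycerol, and it runs glycolysis backwards except at the steps that glycolysis takes in 1 direction. The genes described here are 6 genes of the enzymes that get round these steps (Pck1, Pck2, Pcx, Fbp1, Fbp2 and G6pc), the glucose-6-phosphate transporter Slc37a4 that feeds the last step, the coactivator Ppargc1a and the glucagon receptor Gcgr. They were taken by gene symbol: every probe set of the value table annotated to 1 of these 9 symbols was included, which gave 10 probe sets of 28815, since Ppargc1a has a pair of them, and 9 genes of 18781. The samples were epididymal white adipose tissue (WAT, the fat pad beside the testis), liver (LIV) and skeletal muscle (SM) of 5 male C57Bl/6J mice fasted for 24 h and of 5 mice fed chow at all times. All mice were wild type and 10 to 12 weeks old, food was taken away at the start of the light phase, and 1 Affymetrix Mouse Gene 1.1 ST array was run per mouse and tissue, 30 arrays in all. Each tissue was measured as a whole piece, at 1 time of fasting and in males of 1 strain.

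Liver is the main site of gluconeogenesis in a fasting mammal, and glucagon, acting through its receptor and cAMP, and the loss of insulin signalling are its known switches. Cytosolic Pck1 also serves fat cells, which use it to make the glycerol backbone of triglycerides. Ppargc1a (PGC-1α) coactivates gluconeogenic genes in liver and mitochondrial genes in muscle and brown fat.

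The upstream sequences of Pck1, G6pc, Slc37a4 and Ppargc1a are shown. Pck1 encodes an early enzyme of the pathway and G6pc the last. Slc37a4 and Ppargc1a were the member genes whose change in LIV passed the thresholds given below in the joint fit of all tissues. Each is the 250 bases before a transcription start in the RefSeq annotation of GRCm38.p6, read 5′ to 3′ along the gene: chr2:173152823-173153072 on the plus strand for Pck1, chr11:101367466-101367715 on the plus strand for G6pc, chr9:44396696-44396945 on the plus strand for the most upstream start of Slc37a4, and chr5:51567726-51567975 on the minus strand for Ppargc1a. Capitals mark TGACG, the core of the cAMP response element, or its complement CGTCA where the match is on the other strand.
Pck1: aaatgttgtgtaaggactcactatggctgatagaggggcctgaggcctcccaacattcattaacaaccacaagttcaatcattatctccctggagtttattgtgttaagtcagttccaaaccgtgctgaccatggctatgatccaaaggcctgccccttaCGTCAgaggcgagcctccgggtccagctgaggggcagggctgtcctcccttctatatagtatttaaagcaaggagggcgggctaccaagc
G6pc: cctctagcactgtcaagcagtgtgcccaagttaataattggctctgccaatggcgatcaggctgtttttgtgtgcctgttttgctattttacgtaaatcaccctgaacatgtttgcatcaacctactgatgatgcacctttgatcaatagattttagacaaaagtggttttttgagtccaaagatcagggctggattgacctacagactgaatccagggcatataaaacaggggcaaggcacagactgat
Slc37a4: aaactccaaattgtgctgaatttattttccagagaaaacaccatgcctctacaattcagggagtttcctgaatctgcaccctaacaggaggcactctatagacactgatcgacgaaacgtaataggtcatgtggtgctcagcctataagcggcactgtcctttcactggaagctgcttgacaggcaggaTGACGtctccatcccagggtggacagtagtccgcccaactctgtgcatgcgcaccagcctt
Ppargc1a: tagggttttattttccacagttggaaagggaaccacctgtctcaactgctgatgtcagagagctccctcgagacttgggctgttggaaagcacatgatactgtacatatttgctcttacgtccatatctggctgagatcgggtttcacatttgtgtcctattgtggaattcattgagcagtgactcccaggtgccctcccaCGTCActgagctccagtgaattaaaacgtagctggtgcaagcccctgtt
All 9 genes had such a window, 12 windows in all, and 5 of these windows, of 4 genes, held the core. The match began 90 bases upstream of the start in Pck1, 97 bases upstream in Fbp2, 61 bases upstream in the first of 3 Slc37a4 windows and 49 bases upstream in Ppargc1a. The second Slc37a4 window overlaps the first: it held the same site, 214 bases before its own start, and another on the opposite strand 82 bases before it. The core occurred in 17.8% of 32851 windows of this length over all genes. The full element TGACGTCA, which contains the core, occurred in 1.55% of all windows, the forkhead core GTAAACA in 3.17%, the oestrogen-related receptor element TNAAGGTCA in 1.14% and the direct repeat 1 element of nuclear receptors in 0.0335%, all on either strand, and none of these was found in a window of the 9 genes. These matches describe letters in the windows and say nothing of binding.

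Values are the authors' log2 values after robust multi-array average (RMA) normalization, so a difference of 1 is 2-fold, and the number of arrays limits their precision. Levels are set side by side between tissues and diets for 1 probe set, never between genes. A pair of arrays was left out: the fed LIV 4 array (mean Pearson r of 0.987 with its group, against 0.991 to 0.993 for the other fed LIV arrays) and the fasted SM 5 array (0.980, against 0.991 to 0.992). Fasted SM 5 also had a lymphocyte marker mean of 8.28, against 4.03 to 4.29 on the other fasted SM arrays. For some of the results that these arrays move, the value with them is given as well. The tissues carried their defining markers: the mean of 9 hepatocyte markers lay between 12.45 and 12.54 in LIV, that of 9 adipocyte markers between 11.6 and 12.2 in WAT, and that of 12 muscle fibre markers between 12.42 and 12.55 in SM. The adipocyte mean was also 8.06 to 9.96 on SM arrays and 6.36 to 6.68 in LIV. Car3, 1 of its 9 markers, averaged 12.62 in fed SM and 12.70 in fed LIV, beside 12.90 in fed WAT. The background was read from 1003 olfactory receptor probe sets, of which 95% lay below 3.89 to 4.04, depending on the group. At the upper end, the highest value of any probe set was 13.78. Whether the arrays understate changes at high levels, such as those of Pck1, G6pc and Fbp1 in LIV, was not tested. A difference counted as called where its adjusted p lay under 0.05 (limma, Benjamini-Hochberg over all 28815 probe sets) and it reached 1.3-fold. In whole tissue, fewer cells of a type and less RNA per cell cannot be told apart.

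The genes fell into distinct tissue patterns already in fed mice. G6pc, the catalytic subunit of glucose-6-phosphatase that releases free glucose, averaged 12.25 ± 0.10 in fed LIV (SD, n = 4), 3.70 ± 0.08 in fed WAT and 3.86 ± 0.23 in fed SM (SD, n = 5 each), the last pair below the olfactory benchmark. Fbp1, the liver form of fructose-1,6-bisphosphatase, averaged 12.07 ± 0.07 in fed LIV, 3.70 ± 0.41 in fed WAT and 3.63 ± 0.20 in fed SM. For both genes the levels in WAT and SM are background, so their order was not resolved (adjusted p = 0.113 for G6pc and 0.723 for Fbp1, limma) and the distance from LIV is a lower bound. Fbp2, the muscle form, had the reverse pattern, with 8.18 ± 0.16 in fed SM, 3.88 ± 0.35 in fed WAT and 3.58 ± 0.19 in fed LIV. The Fbp2 levels of fed LIV and fed WAT were at background and differed by −0.31 (SE 0.13, adjusted p = 0.0567).

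**Figure D1:**
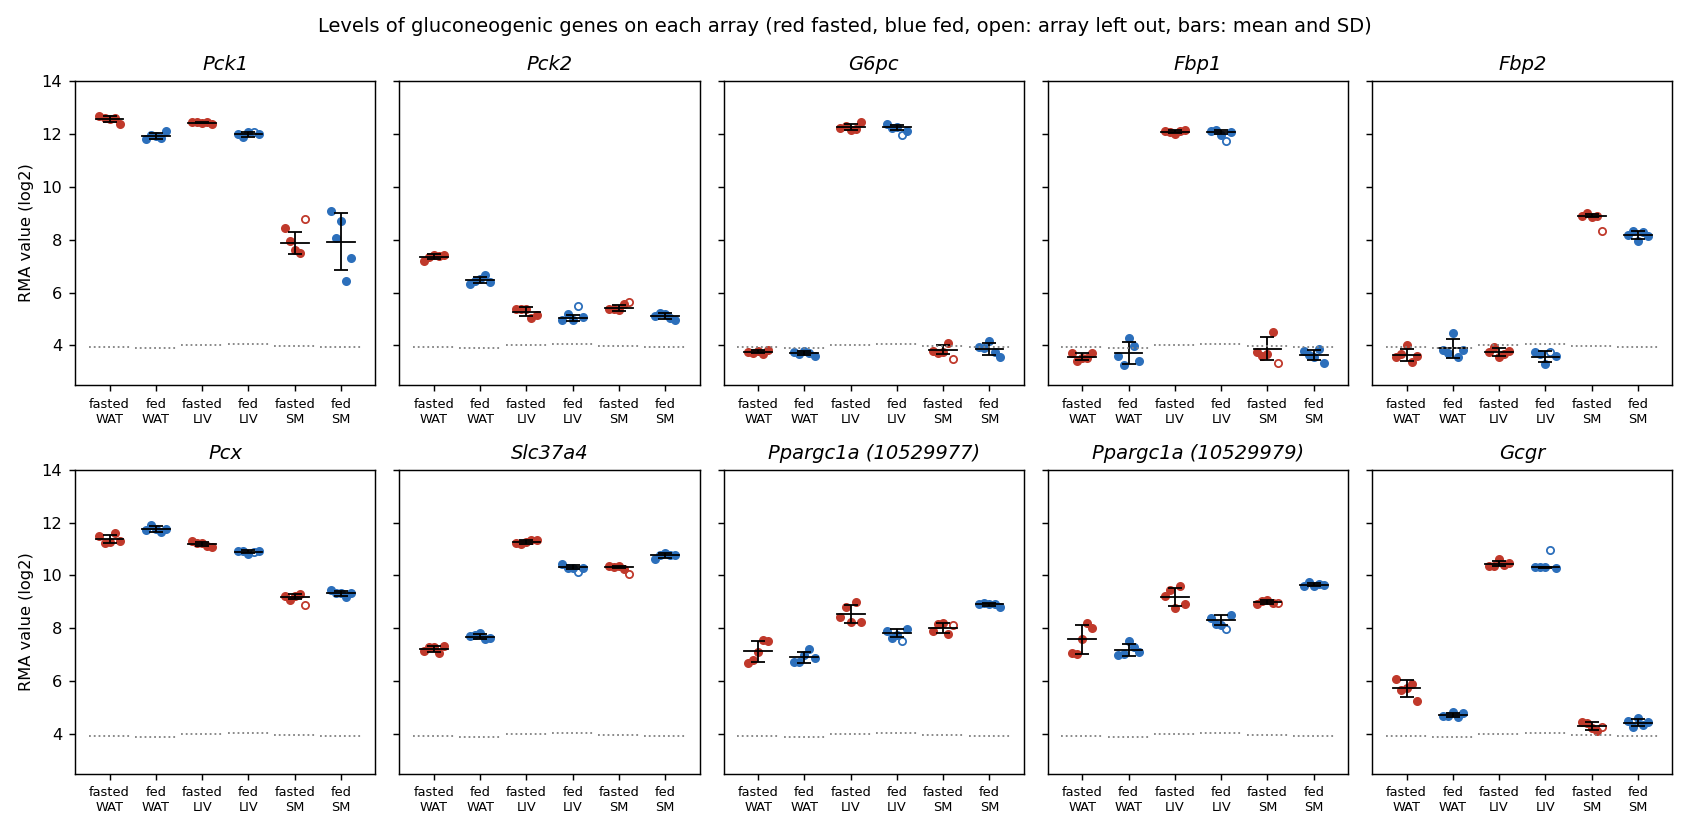
RMA values (log2, vertical axis) of the 10 probe sets on each array, with fasted (red) left of fed (blue) for WAT, LIV and SM; bars give the group mean and SD, open points are the 2 arrays left out and dotted lines the 95th percentile of olfactory receptor probe sets. The group means of G6pc and Fbp1 stand above the dotted lines in LIV only, those of Fbp2 in SM only, and Pck1 spreads most widely in fed SM, between 6.44 and 9.09.

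Pck1, the cytosolic phosphoenolpyruvate carboxykinase, averaged 11.98 ± 0.08 in fed LIV (n = 4), 11.93 ± 0.12 in fed WAT and 7.92 ± 1.08 in fed SM (n = 5 each). Its LIV and WAT levels differed by 0.06 (SE 0.30, adjusted p = 0.893), with a 95% interval of −0.57 to 0.68. Pck2, the mitochondrial form, was highest in fed WAT at 6.47 ± 0.12, and its levels of 5.03 ± 0.10 in fed LIV and 5.10 ± 0.11 in fed SM differed by −0.07 (adjusted p = 0.503). Pcx, the pyruvate carboxylase that makes oxaloacetate in mitochondria, ran from fed WAT (11.77 ± 0.10) through fed LIV (10.90 ± 0.06) to fed SM (9.32 ± 0.09), each step past the threshold. Slc37a4 stood at 10.76 ± 0.08 in fed SM, 10.33 ± 0.07 in fed LIV and 7.69 ± 0.09 in fed WAT. The Ppargc1a probe sets 10529977 and 10529979 had 1 order, highest in fed SM (8.91 ± 0.06 and 9.65 ± 0.05), then fed LIV (7.81 ± 0.15 and 8.30 ± 0.19), then fed WAT (6.91 ± 0.21 and 7.19 ± 0.22). Gcgr averaged 10.32 ± 0.02 in fed LIV, 4.72 ± 0.08 in fed WAT and 4.43 ± 0.13 in fed SM, and the WAT and SM levels differed by 0.29 (adjusted p = 0.0139), under 1.3-fold. Of the 10 probe sets, 8 were called between fed LIV and fed WAT (6 higher in LIV and 2 lower; 39.4% of all probe sets were called, 18.0% higher and 21.4% lower). Between fed LIV and fed SM it was 9, 5 higher in LIV and 4 lower (42.8% of all, 20.1% higher and 22.7% lower). Between fed WAT and fed SM it was 7, 3 higher in WAT and 4 lower (41.7% of all, 22.9% higher and 18.8% lower).

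With 24 h of fasting, 4 of the 10 probe sets changed in WAT, where 13.2% of all probe sets did: Pck2 and Gcgr rose (6.93% of all rose) and Pcx and Slc37a4 fell (6.23% of all fell). In LIV the 3 called were Slc37a4 and both Ppargc1a probe sets, all higher (6.55% of all probe sets changed, 3.12% rose and 3.43% fell). In SM 4 were called, Fbp2 higher and Slc37a4 and both Ppargc1a probe sets lower (11.9% of all changed, 6.35% rose and 5.52% fell). The median change over the 9 genes was 0.05 in WAT, 0.23 in LIV and −0.05 in SM, beside medians over all genes of 0.0053, 0.03 and −0.0040.

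**Figure D2:**
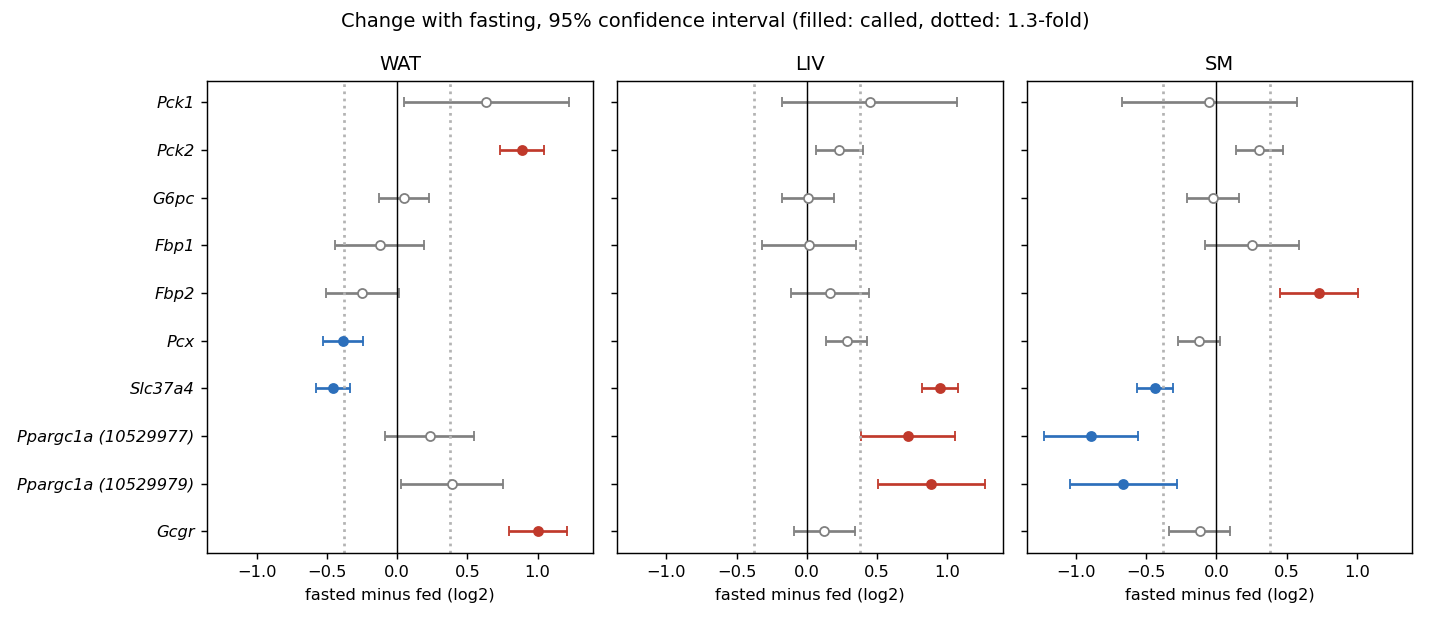
Change of the 10 probe sets (fasted minus fed, log2, horizontal axis) with 95% confidence intervals in WAT, LIV and SM; filled red and blue points were called higher and lower, open points were not called, and dotted lines mark 1.3-fold. Slc37a4 lies at 0.95 in LIV and at −0.46 and −0.44 in WAT and SM, and the Ppargc1a probe sets lie at opposite signs in LIV and SM.

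Among the enzymes, phosphoenolpyruvate carboxykinase is described first. Values follow the order of array numbers. Pck1 was 12.69, 12.60, 12.55, 12.61 and 12.36 in fasted WAT, against 11.79, 11.95, 11.93, 11.85 and 12.11 in fed WAT. In LIV it was 12.45, 12.45, 12.40, 12.47 and 12.39 in fasted mice, against 11.98, 11.88, 12.08 and 11.99 in fed mice. The fasted arrays lay above all fed arrays in both tissues. The change was 0.64 (SE 0.29, adjusted p = 0.111) in WAT and 0.45 (SE 0.30, adjusted p = 0.392) in LIV, neither called. These errors come from 1 spread estimated over the 3 tissues, and the SD of Pck1 was 1.08 in fed SM and 0.42 in fasted SM, against 0.03 to 0.12 in the other groups. With each tissue fitted on its own, the same changes were called, with an SE of 0.08 and adjusted p = 8.64e-05 in WAT and an SE of 0.06 and adjusted p = 0.000575 in LIV. Those calls held without each array in turn (adjusted p of 4.56e-05 to 0.000388 in WAT and 0.00114 to 0.00277 in LIV), and without fed SM 4 the WAT change was called in the joint fit as well (adjusted p = 0.0206).

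In SM, Pck1 was 8.44, 7.93, 7.62 and 7.49 in fasted mice, against 9.09, 8.06, 8.72, 6.44 and 7.29 in fed mice. The groups overlapped fully and the change was −0.05 (SE 0.30, adjusted p = 0.942). The left-out fasted SM 5 array had 8.78, and with all 30 arrays the change was 0.13 (adjusted p = 0.828). The spread went with adipocyte markers: their mean was 8.93, 8.57, 8.61 and 8.10 on the fasted SM arrays, against 9.96, 9.31, 9.72, 8.06 and 8.54 on the fed SM arrays. Of the 9 adipocyte markers in SM, 3 fell (Plin1, Retn and Lep) and none rose, where 1086 of all 18781 genes fell and 1464 rose. The group mean of each of the 9 lay above the olfactory benchmark in both diets. Car3 was nearly as high in SM (12.55 fasted, 12.62 fed) as in WAT (12.99 fasted, 12.90 fed). Lep also fell with fasting in WAT (9.01 fasted, 10.95 fed). The marker mean therefore does not measure fat content alone. With SM fitted on its own and the adipocyte mean as a covariate, the Pck1 change was 0.69 (SE 0.12, adjusted p = 0.00311), and with the slow fibre marker mean in its place it was −0.39 (SE 0.32, adjusted p = 0.461). Whether fat tissue in the dissected muscle set the Pck1 values was not tested.

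**Figure D3:**
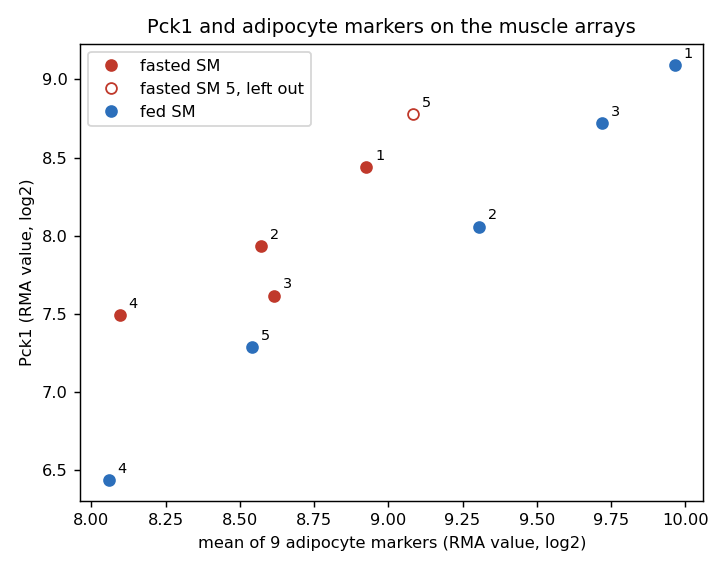
Pck1 (RMA value, log2, vertical axis) against the mean of 9 adipocyte markers (RMA value, log2, horizontal axis) on each SM array, with array numbers beside the points, fasted in red, fed in blue and the left-out fasted SM 5 array open. The fed arrays reach from 8.06 to 9.96 on the marker axis and from 6.44 to 9.09 for Pck1, and the fasted arrays lie between.

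Pck2 was 7.19, 7.35, 7.43, 7.40 and 7.41 in fasted WAT, against 6.32, 6.44, 6.51, 6.65 and 6.41 in fed WAT. No fasted array reached down to a fed one, and Pck2 rose by 0.89 (SE 0.08, adjusted p = 1.05e-09), or 1.85-fold. In SM it was 5.36, 5.38, 5.33 and 5.56 in fasted mice, against 5.12, 5.21, 5.19, 5.02 and 4.97 in fed mice. These SM groups did not overlap either, but the change of 0.31 (SE 0.08, adjusted p = 0.00623) was under 1.3-fold and so not called. With fasted SM 5 kept and fasted SM 1 left out, it was 0.38 (adjusted p = 0.00151) and called. In LIV the values overlapped, 5.03 to 5.39 in fasted mice against 4.95 to 5.17 in fed mice, with a change of 0.23 (SE 0.08, adjusted p = 0.0575). The left-out fed LIV 4 array had 5.48, above all fasted LIV arrays, and with it the change was 0.14.

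Pcx supplies the oxaloacetate that both carboxykinases use. It was 11.48, 11.24, 11.28, 11.61 and 11.30 in fasted WAT, against 11.74, 11.93, 11.76, 11.63 and 11.77 in fed WAT. The highest fasted array lay just below the lowest fed array, and Pcx fell by 0.39 (SE 0.07, adjusted p = 7.35e-05), 1.31-fold. The fold is just past the minimum: without fed WAT 2 or fasted WAT 2, 3 or 5 it was under 1.3-fold, with changes of −0.35 to −0.36 and adjusted p of 0.000334 to 0.000445. In LIV, Pcx was 11.29, 11.22, 11.21, 11.11 and 11.09 in fasted mice, against 10.94, 10.94, 10.81 and 10.92 in fed mice. All fasted LIV arrays lay above the fed ones, with a change of 0.28 (SE 0.07, adjusted p = 0.00781) that was under 1.3-fold. In SM the change was −0.12 (SE 0.07, adjusted p = 0.251) with overlapping arrays.

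The fructose-1,6-bisphosphatases differed by tissue as their levels did. Fbp2 was 8.89, 9.00, 8.87 and 8.88 in fasted SM, against 8.18, 8.33, 7.94, 8.31 and 8.12 in fed SM. The groups did not overlap, and Fbp2 rose by 0.73 (SE 0.13, adjusted p = 0.000158), or 1.66-fold. The left-out fasted SM 5 array had 8.32, inside the fed range, and with it the rise was 0.62 (SE 0.14, adjusted p = 0.00163). The slow fibre marker mean spread from 8.34 to 9.86 on fasted SM arrays and from 5.39 to 10.21 on fed SM arrays, and with it as a covariate the change of Fbp2 was 0.73 (SE 0.09, adjusted p = 0.000356). Fbp1, in LIV, was 12.10, 12.08, 12.00, 12.11 and 12.14 in fasted mice, against 12.11, 12.13, 11.98 and 12.06 in fed mice. Those values overlapped fully, with a change of 0.01 and a 95% interval of −0.32 to 0.35. The interval is wider than the LIV arrays alone would give. The SD of Fbp1 was 0.05 in fasted LIV and 0.07 in fed LIV, against 0.41 in fed WAT and 0.43 in fasted SM, at background. In the tissues where Fbp1 or Fbp2 was at background, the changes lay between −0.25 and 0.25 and none was called.

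G6pc and Slc37a4 work as a pair at the last step, the transporter carrying glucose-6-phosphate into the endoplasmic reticulum where the phosphatase sits. G6pc was 12.22, 12.29, 12.13, 12.17 and 12.46 in fasted LIV, against 12.37, 12.24, 12.25 and 12.13 in fed LIV. The groups overlapped and the change was 0.01 (SE 0.09, adjusted p = 0.971), with a 95% interval of −0.18 to 0.20. That interval holds for array values high on the scale and does not cover a change that the arrays might understate there. In WAT and SM, G6pc was at background in both diets (3.67 to 3.82 in fasted WAT against 3.59 to 3.78 in fed WAT, and 3.71 to 4.08 in fasted SM against 3.55 to 4.16 in fed SM).

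Slc37a4 changed in all 3 tissues, and not in 1 direction. It was 11.24, 11.18, 11.25, 11.36 and 11.35 in fasted LIV, against 10.44, 10.29, 10.30 and 10.29 in fed LIV. In WAT it was 7.15, 7.31, 7.30, 7.06 and 7.33 in fasted mice, against 7.70, 7.73, 7.81, 7.59 and 7.62 in fed mice. In SM it was 10.37, 10.31, 10.35 and 10.25 in fasted mice, against 10.63, 10.78, 10.86, 10.77 and 10.76 in fed mice. Fasted and fed arrays were separate in each tissue, with the fasted ones above in LIV and below in WAT and SM. Slc37a4 rose by 0.95 in LIV (SE 0.06, adjusted p = 1.60e-11), or 1.93-fold. It fell by 0.46 in WAT (SE 0.06, adjusted p = 7.73e-07) and by 0.44 in SM (SE 0.06, adjusted p = 4.84e-06), 1.38-fold and 1.36-fold. With all 30 arrays the change was 0.99 in LIV and −0.49 in SM. The change in LIV exceeded that in WAT by 1.41 (SE 0.09, adjusted p = 7.69e-12) and that in SM by 1.39 (SE 0.09, adjusted p = 1.31e-11), and the changes in WAT and SM differed by −0.02 (SE 0.09, adjusted p = 0.919).

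Ppargc1a, the coactivator, moved in opposite directions in LIV and SM. Its probe set 10529979 was 9.21, 9.45, 8.78, 9.60 and 8.91 in fasted LIV, against 8.41, 8.16, 8.13 and 8.51 in fed LIV. In SM it was 8.93, 9.02, 9.07 and 8.95 in fasted mice, against 9.61, 9.74, 9.61, 9.68 and 9.63 in fed mice. The groups were separate in both tissues, with the wider spread in fasted LIV. This probe set rose by 0.89 in LIV (SE 0.19, adjusted p = 0.00147) and fell by 0.66 in SM (SE 0.19, adjusted p = 0.00976). Probe set 10529977 was 8.43, 8.80, 8.24, 8.99 and 8.24 in fasted LIV, against 7.89, 7.64, 7.74 and 7.99 in fed LIV, a rise of 0.72 (SE 0.16, adjusted p = 0.00268). In SM it was 7.92, 8.16, 8.19 and 7.79 in fasted mice, against 8.91, 8.96, 8.93, 8.92 and 8.81 in fed mice, a fall of 0.89 (SE 0.16, adjusted p = 0.000137). Both probe sets thus had the same signs and no overlap in LIV and SM. With all 30 arrays the changes of 10529979 were 0.95 in LIV and −0.67 in SM, and those of 10529977 were 0.79 in LIV and −0.87 in SM. The changes in LIV exceeded those in SM by 1.55 (SE 0.26, adjusted p = 0.000112) for 10529979 and by 1.62 (SE 0.23, adjusted p = 1.02e-05) for 10529977. With the slow fibre marker mean as a covariate, the SM changes were −0.67 and −0.92 (adjusted p = 7.04e-05 for 10529979 and 8.45e-05 for 10529977).

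In WAT, Ppargc1a 10529979 was 7.07, 7.02, 7.59, 8.20 and 8.02 in fasted mice, against 6.98, 7.04, 7.53, 7.29 and 7.11 in fed mice. Fasted arrays 1 and 2 lay within the fed range and arrays 3 to 5 above it, and the change of 0.39 (SE 0.18, adjusted p = 0.108) was not called. Without fasted WAT 1 it was 0.52 (adjusted p = 0.0296) and without fasted WAT 2 it was 0.53 (adjusted p = 0.0212), both called. Probe set 10529977 changed by 0.23 (SE 0.15, adjusted p = 0.321) with overlapping arrays.

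Gcgr was 6.08, 5.66, 5.73, 5.90 and 5.26 in fasted WAT, against 4.68, 4.67, 4.82, 4.64 and 4.81 in fed WAT. Every fasted array lay above every fed array and above the olfactory benchmark of 3.93, and Gcgr rose by 1.00 (SE 0.10, adjusted p = 1.46e-08), a doubling. In LIV it was 10.37, 10.37, 10.61, 10.40 and 10.46 in fasted mice, against 10.31, 10.32, 10.33 and 10.30 in fed mice. These arrays did not overlap, but the change of 0.13 (SE 0.11, adjusted p = 0.520) was not called. The left-out fed LIV 4 array had 10.95, above all fasted arrays, and with it the change was −0.00064. In SM the values lay near background, 4.12 to 4.46 in fasted mice against 4.27 to 4.60 in fed mice. The change in LIV was below that in WAT by 0.88 (LIV minus WAT −0.88, SE 0.15, adjusted p = 8.00e-05).

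Some markers of other cells were called with fasting too. Of all 18781 genes, 1501 rose and 1455 fell in WAT, 663 rose and 753 fell in LIV, and 1464 rose and 1086 fell in SM. None of the 8 lymphocyte markers or 7 slow fibre markers was called in any tissue. The mean of 9 hepatocyte markers was 5.62 to 5.92 in fasted WAT, against 5.24 to 5.51 in fed WAT. Of the 9, 2 rose in WAT (Apoc3 and Tat), and Apoc3 averaged 8.26 in fasted WAT and 6.31 in fed WAT. Hp, also in the list, averaged 11.93 in fasted WAT and 12.12 in fed WAT, beside 11.99 in fed LIV. The list mean in WAT therefore does not measure hepatocyte signal alone. Ttr, Fgb, Ahsg and Cps1 stayed below the olfactory benchmark in WAT in both diets, as G6pc and Fbp1 did. Alb, the albumin gene, averaged 7.46 in fasted WAT and 7.19 in fed WAT and was not called. Of 7 macrophage markers 2 rose (Cd14 and Cd163), with a list mean of 8.55 to 9.11 in fasted WAT against 8.46 to 8.66 in fed WAT. Cd163 averaged 8.54 in fasted WAT and 7.40 in fed WAT and Cd14 averaged 6.62 in fasted WAT and 5.98 in fed WAT, whereas Mrc1 averaged 8.89 in fasted WAT and 9.10 in fed WAT and Adgre1 averaged 8.04 in fasted WAT and 8.21 in fed WAT. Of 9 adipocyte markers Lep fell in WAT, and of 12 muscle fibre markers Acta1 rose there, with a list mean of 4.36 to 4.85 in fasted WAT against 4.29 to 4.46 in fed WAT and 6 of the 12 below the benchmark. These single calls lie near the shares of all genes that fell and rose in WAT. In LIV, 3 of 7 macrophage markers fell (Adgre1, Csf1r and Lyz2), with a list mean of 6.55 to 7.10 in fasted LIV against 7.01 to 7.41 in fed LIV. In SM, 2 of the 7 rose (Cd68 and Cd163), with a list mean of 6.37 to 6.98 in fasted SM against 6.24 to 6.66 in fed SM. Cd163 averaged 6.78 in fasted SM and 6.05 in fed SM, and Mrc1 6.79 in fasted SM and 7.11 in fed SM. The part of these markers in the changes of the gluconeogenic genes was not tested.

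Tested directly, the change in LIV minus that in WAT was called for 4 probe sets, 2 positive and 2 negative (13.5% of all probe sets were called, 6.45% positive and 7.00% negative). The change in LIV minus that in SM was called for 5, 4 positive and 1 negative (12.8% of all, 6.41% positive and 6.42% negative), and the change in WAT minus that in SM for 5, 4 positive and 1 negative (12.8% of all, 6.61% positive and 6.23% negative). For Pck2 the change in LIV was below that in WAT by 0.66 (LIV minus WAT −0.66, SE 0.11, adjusted p = 9.57e-05), and that in WAT exceeded that in SM by 0.58 (SE 0.11, adjusted p = 0.000401). For Pcx the change in LIV exceeded that in WAT by 0.67 (SE 0.10, adjusted p = 1.73e-05) and that in SM by 0.41 (SE 0.10, adjusted p = 0.00560). Fbp2 is counted among the negative ones in LIV minus SM and WAT minus SM, but its levels in LIV and WAT lay at background in both diets, so how its change differed between tissues was not resolved. For Ppargc1a the WAT changes exceeded those in SM by 1.12 and 1.06 for 10529977 and 10529979 (adjusted p = 0.000615 and 0.00417, in that order), whereas LIV and WAT differed by 0.49 for each (adjusted p = 0.143 and 0.210). For Gcgr the WAT change exceeded that in SM by 1.12 (SE 0.15, adjusted p = 2.98e-06). Pck1, G6pc and Fbp1 had no called difference between tissues, and for Pck1 the 95% intervals were wide, −1.05 to 0.67 for LIV minus WAT and −0.39 to 1.38 for LIV minus SM.

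The other genes of the pathway were described from 8 lists. Over all 18781 genes, 1501 rose and 1455 fell in WAT, 663 rose and 753 fell in LIV, and 1464 rose and 1086 fell in SM. Of the 8 measured genes of enzymes that glycolysis and gluconeogenesis share, 3 fell and 1 rose in WAT. Tpi1, triosephosphate isomerase, averaged 8.96 ± 0.27 in fasted WAT against 10.41 ± 0.19 in fed WAT (change −1.45, adjusted p = 4.39e-12), and the phosphoglycerate mutase Pgam1 (−0.79, adjusted p = 1.04e-07) and the phosphoglycerate kinase Pgk1 (−0.43, adjusted p = 2.87e-05) also fell, while the enolase Eno3 rose by 0.42 (adjusted p = 3.78e-06). In LIV 1 of the 8 changed, the aldolase Aldoc (7.40 ± 0.24 in fasted LIV, 8.49 ± 0.18 in fed LIV, change −1.08, adjusted p = 2.45e-07), and in SM 1, the muscle mutase Pgam2 (−0.51, adjusted p = 0.000548).

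Among 11 measured genes of the opposing glycolytic steps, 5 fell and none rose in WAT. They included the phosphofructokinases Pfkl (−0.78, adjusted p = 1.79e-07) and Pfkm (−0.51, adjusted p = 2.19e-06), the bifunctional enzyme Pfkfb4 (−0.64, adjusted p = 8.28e-07) and hexokinase 2, Hk2 (−0.53, adjusted p = 5.26e-07). The list's median change in WAT was −0.30, beside 0.0053 for all genes. In LIV, Pfkfb2, which makes and removes the allosteric regulator fructose-2,6-bisphosphate, averaged 8.84 ± 0.12 in fasted mice against 7.73 ± 0.12 in fed mice (change 1.11, adjusted p = 1.15e-09), and Pklr, the liver pyruvate kinase, averaged 9.90 ± 0.24 in fasted mice against 10.65 ± 0.24 in fed mice (change −0.75, adjusted p = 0.00107). In SM none of the 11 was called; Pfkl there changed by −0.37 (adjusted p = 0.00592) and Pklr, near background, by −0.26 (adjusted p = 0.259).

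Of 21 measured genes of substrate supply, 9 fell and 2 rose in WAT, with a median of −0.37. The 2 that rose, named after their values were seen, were Got1 (0.49, adjusted p = 0.00169) and the tyrosine aminotransferase Tat (0.54, adjusted p = 0.000487), which is also 1 of the hepatocyte markers. The mitochondrial dicarboxylate carrier Slc25a10 averaged 8.02 ± 0.19 in fasted WAT against 10.68 ± 0.15 in fed WAT (−2.66, adjusted p = 3.22e-11), and alanine aminotransferase Gpt averaged 5.83 ± 0.20 in fasted WAT against 8.35 ± 0.16 in fed WAT (−2.52, adjusted p = 2.87e-16). Both glycerol-3-phosphate dehydrogenases fell there, the cytosolic Gpd1 by 1.37 (adjusted p = 2.35e-12) and the mitochondrial Gpd2 by 1.11 (adjusted p = 6.10e-09). In LIV 5 of 21 rose and none fell, with a median of 0.24, beside 0.03 for all genes. They included the mitochondrial alanine aminotransferase Gpt2 (0.69, adjusted p = 9.57e-08), the aspartate aminotransferase Got1 (0.46, adjusted p = 0.0100) and the aspartate-glutamate carrier Slc25a13 (0.41, adjusted p = 5.32e-05). In SM 1 of the 21 fell and none rose, with a median of −0.12.

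Of 24 measured regulators of gluconeogenic transcription, 5 rose and 2 fell in WAT, 5 rose and 2 fell in LIV, and 6 rose and 1 fell in SM. Klf15, a Krüppel-like factor, rose in all 3 tissues, by 0.69 in WAT (adjusted p = 1.50e-05), 0.64 in LIV (adjusted p = 0.000247) and 0.85 in SM (adjusted p = 2.44e-06). The forkhead factor Foxo1, which insulin signalling keeps out of the nucleus, rose by 0.55 in LIV (adjusted p = 2.43e-07) and by 1.28 in SM (adjusted p = 1.75e-14), and Foxo3 rose by 0.78 in WAT (adjusted p = 8.09e-10) and by 1.19 in SM (adjusted p = 7.16e-13). Cebpb averaged 8.52 ± 0.17 in fasted SM against 7.13 ± 0.12 in fed SM (1.39, adjusted p = 3.36e-09) and rose by 0.64 in LIV (adjusted p = 0.000792). The orphan nuclear receptor Nr4a1 averaged 5.11 ± 0.45 in fasted LIV against 6.67 ± 0.39 in fed LIV (−1.56, adjusted p = 4.56e-06), and its relative Nr4a3 rose by 1.03 in WAT (adjusted p = 0.00289). Stat3 rose by 0.57 in WAT (adjusted p = 2.38e-06).

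The relatives of Ppargc1a did not all move with it. Of 10 measured genes of the family and its mitochondrial partners, 3 rose and 1 fell in WAT, 2 rose in LIV, and 1 rose and 1 fell in SM. Ppargc1b (PGC-1β) averaged 6.75 ± 0.31 in fasted SM against 7.62 ± 0.12 in fed SM and fell by 0.87 (adjusted p = 0.000158). Pprc1, another member of the coactivator family, rose by 0.76 in SM (adjusted p = 4.22e-06) and by 0.51 in WAT (adjusted p = 0.000282). Esrra, the oestrogen-related receptor that PGC-1α coactivates, rose by 0.45 in LIV (adjusted p = 0.000178), and the mitochondrial transcription factor Tfb2m rose by 0.49 in WAT (adjusted p = 1.91e-05).

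Of 11 measured genes of glucagon and cAMP signalling other than Gcgr, 1 rose and 1 fell in WAT, 1 fell in LIV and none was called in SM. The cAMP phosphodiesterase Pde4d rose by 1.09 in WAT (adjusted p = 1.48e-05), with 8.21 to 9.65 in fasted WAT against 7.37 to 8.06 in fed WAT, and Pde4b fell by 0.45 in WAT (adjusted p = 0.000892) and by 1.00 in LIV (adjusted p = 6.86e-08). In SM, Pde4d changed by 0.48 (adjusted p = 0.0541) and Prkar2a by −0.28 (adjusted p = 0.00409, under 1.3-fold). Of 9 insulin signalling genes, 3 rose and 1 fell in WAT, 1 rose in LIV, and 3 rose and 2 fell in SM. In WAT the insulin receptor Insr (0.71, adjusted p = 3.12e-09), Irs2 (0.67, adjusted p = 4.18e-05) and Trib3 (0.95, adjusted p = 1.38e-07), whose protein binds Akt, rose, and Pik3r1, a regulatory subunit of phosphoinositide 3-kinase, fell by 0.76 (adjusted p = 3.87e-06). In SM, Pik3r1 rose by 0.75 (adjusted p = 1.40e-05) and Irs2 by 0.46 (adjusted p = 0.00503), while Irs1 fell by 0.50 (adjusted p = 0.00372) and Trib1 by 0.43 (adjusted p = 0.0123). Of the 5 other glucose-6-phosphatase and transporter isoforms, Slc37a2 rose in WAT by 0.56 (adjusted p = 7.87e-07) and none was called in LIV or SM; the ubiquitous phosphatase G6pc3 changed by 0.17 in LIV (adjusted p = 0.162).

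**Figure D4:**
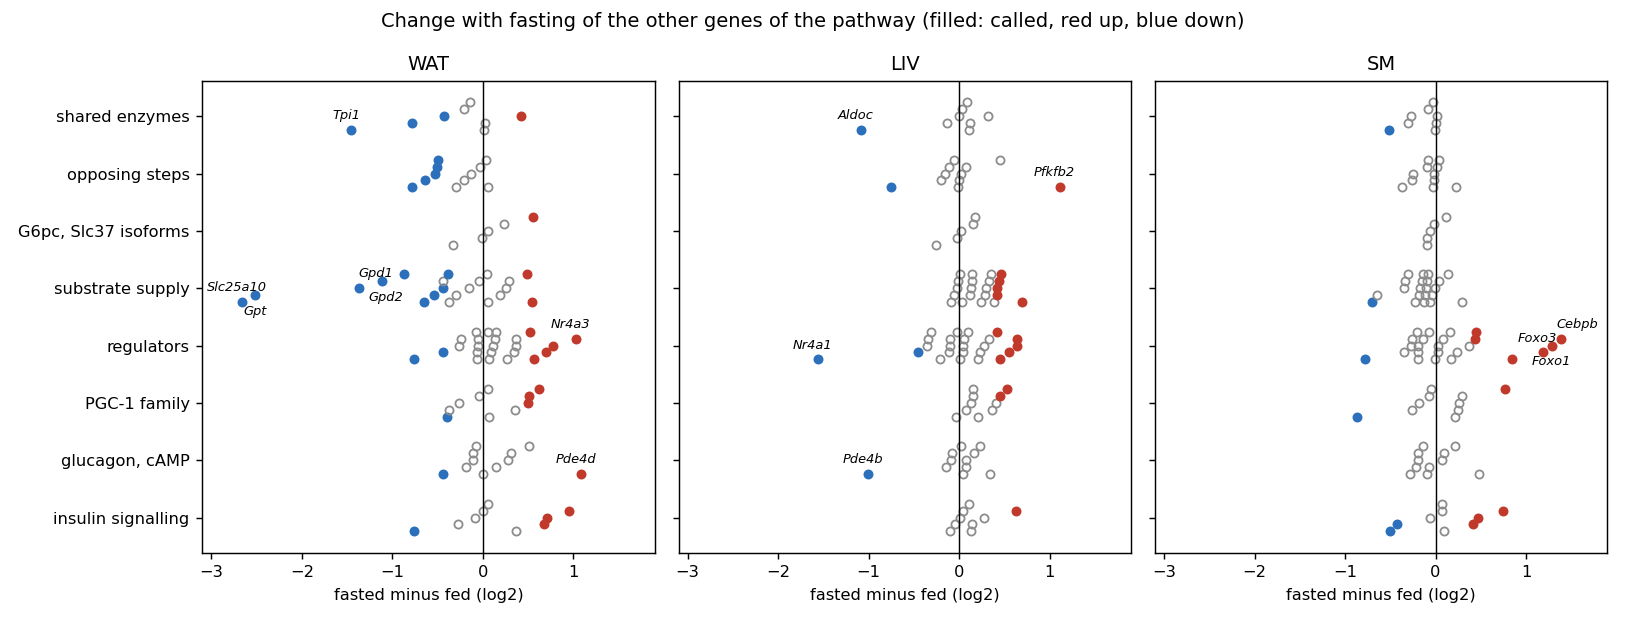
Change with fasting (fasted minus fed, log2, horizontal axis) of each measured gene of the 8 lists in WAT, LIV and SM, 1 point per gene, filled where called (red higher, blue lower) and named where called beyond 1 on this axis. Substrate supply shows 9 falls and 2 rises in WAT and 5 rises in LIV, and the regulators reach 1.39 in SM.

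Over the 28 arrays, the genes whose values followed Pck1 most closely were Cdo1, Klb and Trf (Pearson r of 0.992, 0.992 and 0.991), and those closest to G6pc were Ugt3a1, Ambp and Ugt2b36 (each between 0.9994 and 0.9995). For Ppargc1a probe set 10529979 they were Tmc7, Mir677 and Cops6 (0.964, 0.958 and 0.952). These values mostly restate which tissue an array came from. After each tissue's mean was subtracted, the closest were Apoe, Pde3b and Sfxn1 to Pck1 (0.926, 0.904 and 0.896), Mir677, Map3k5 and Pole4 to Ppargc1a (0.866, 0.836 and 0.822) and Kcnu1, Cyp3a25 and Tbx1 to G6pc (0.731, 0.709 and 0.698). For Pck1 these rest largely on the SM arrays, where its SD was 1.08 in fed mice and 0.42 in fasted mice, against 0.03 to 0.12 in the other groups. The points share tissues, mice and diets, so the correlations are descriptions without a test.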

How the data were processed

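Gene expression was measured by the authors on Affymetrix Mouse Gene 1.1 ST arrays in WAT, LIV and SM of fasted and fed mice. The deposited values are log2 values that the authors made in Partek by RMA, which corrects background, equalises the distributions of the arrays and summarises the probes of each probe set by median polish. A change in the total mRNA of a tissue would therefore not be seen. Labels and methods differ on the RNA extraction. No column lacked a sample, and no 2 arrays were identical.

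Gene names of probe sets came from the platform annotation: 21153 name 1 symbol, 1867 several, and 5795 are unnamed here. Where several probe sets with 1 symbol shared a gene, the one with the highest mean stood for it, except for Ppargc1a, shown by both. The 9 genes and the lists were chosen with earlier results of these data known. From each list, up to 4 called genes per tissue with the largest change and no overlap of arrays were named, or the 2 largest changes where none was called. Listed genes with no probe set of 1 symbol were not analysed here.

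Means of the 6 groups were estimated jointly from 28 arrays with limma 3.58.1 in R 4.3.3 (prior degrees of freedom 4.24). The methods name fed liver 4 and fasted muscle 1 as the outlying arrays, whereas fasted muscle 5 stood apart in the values and was left out here; the other set was an alternative. In simulated data with the measured spread, 62 of 67 added changes of 1.5-fold were called in WAT, 58 of 67 in LIV and 59 of 67 in SM. The simulated noise was normal with 1 spread per probe set in all tissues, and few probe sets were changed. These shares therefore do not cover a probe set such as Pck1, whose spread differed between tissues. The labels call the arrays biological replicates, and replicate numbers did not pair fasted with fed mice. Figures used matplotlib 3.10.9 in Python 3.11.15. Alternatives were other sets of arrays, array weights, separate tissues, blocks of replicate number within a tissue or a diet, cyclic loess, dim or ambiguous probe sets left out, other thresholds, marker covariates in SM and each array left out. Fits of each tissue on its own with all arrays, or without each array, were added after seeing the data.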

Additional observations from a re-analysis of the deposited data

Results flagged for a closer look

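The change with fasting differed between tissues, by a test of the difference in the joint limma fit, for 14 pairs of probe set and tissues. For LIV minus WAT the differences were −0.66 for Pck2, 0.67 for Pcx, 1.41 for Slc37a4 and −0.88 for Gcgr. For LIV minus SM they were −0.57 for Fbp2, 0.41 for Pcx, 1.39 for Slc37a4 and, for the Ppargc1a probe sets 10529977 and 10529979, 1.62 and 1.55. For WAT minus SM they were 0.58 for Pck2, −0.98 for Fbp2, 1.12 and 1.06 for Ppargc1a 10529977 and 10529979, and 1.12 for Gcgr. Fbp2 lay at background in LIV and WAT in both diets, so its 2 differences rest on values in which no change could be resolved.

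In 3 of 60 groups of arrays, 1 array stood apart from the rest by Dixon's 95% criterion, which chance meets in about 1 of 20 groups. Fbp1 was 4.51 on fasted SM 4 and 3.60 to 3.73 on the other fasted SM arrays, all near background. Fbp2 was 9.00 on fasted SM 2 and 8.87 to 8.89 on the others. Slc37a4 was 10.44 on fed LIV 1 and 10.28 to 10.30 on the other fed LIV arrays.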

How the results depend on the processing

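Of 104 counts of called probe sets under other settings, 102 stayed within 1.5 times the reported count, array removals aside. A minimum of 1.5-fold gave 2 in place of 4 in WAT and 3 in place of 5 for the change in LIV minus that in SM. With each array left out, that last count ran from 3 to 5 (3 without fed SM 1 or fasted SM 2), and the counts were 3 to 5 in WAT, 3 in LIV and 4 in SM. Of 410 values of single probe sets, 388 kept their direction and side of the threshold, 3 lost their call, 8 gained one and 11 changed sign. None of the sign changes befell a called change in the reported fit. Pck1 in SM was 0.13 with all 30 arrays (also with SM fitted on its own), 0.035 with fasted SM 1 left out in place of fasted SM 5, 0.0028 with array weights and 0.69 with the adipocyte covariate. Gcgr in LIV was −0.00064 with all 30 arrays, in the joint fit and with LIV on its own. Under cyclic loess G6pc was −0.015 in WAT and −0.044 in LIV, and Fbp1 −0.038 in LIV. G6pc in SM was 0.057 with the adipocyte covariate. With each array left out, the ranges were −0.42 to 0.24 for Pck1 in SM, −0.11 to 0.049 for G6pc in SM, −0.042 to 0.049 for G6pc in LIV, −0.017 to 0.036 for Fbp1 in LIV and −0.24 to 0.017 for Fbp1 in WAT, in the joint fit and with each tissue on its own. The causes were not tested.

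Same-numbered fasted and fed arrays did not deviate together: over 13 pairs the correlation of deviations ran from −0.25 to 0.16, and 3 exceeded 0.1. With the replicate number as a block, 5 probe sets were called in WAT (4 without it), 3 in LIV, 4 in SM and 5 for the change in LIV minus that in WAT (4 without it). Pck1 in WAT was called under the block (0.64, adjusted p = 0.0336, limma), and no other call of a member's change with fasting differed. With same-numbered arrays of 1 diet taken as 1 mouse and fitted as a random block, the counts did not move (consensus correlation 0.03). The labels do not say that equal numbers in different tissues mean 1 mouse. Over 26 such pairs of tissues the correlation of deviations ran from −0.12 to 0.18, so this fit may not have modelled the mouse. Depth of signal limits G6pc, Fbp1 and Fbp2 outside their own tissues, where levels lie at background and no change could be resolved.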
